A study of Mus musculus with 11 samples.

Results

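The release of calcium from intracellular stores was followed through 9 genes in the aorta of old mice, 3 IP3 receptors (Itpr1, Itpr2 and Itpr3), 3 ryanodine receptors (Ryr1, Ryr2 and Ryr3) and 3 IP3 kinases (Itpka, Itpkb and Itpkc). The members were taken by gene name, and all 11 of their probes were used, out of 55681 probes with 36413 distinct names on the array. Both receptor families form the channels through which the sarcoplasmic and endoplasmic reticulum gives up calcium to the cytosol. IP3 receptors open when phospholipase C produces IP3 (inositol trisphosphate) downstream of vasoconstrictor receptors, ryanodine receptors open in response to calcium itself or to the voltage sensor of striated muscle, and IP3 kinases phosphorylate IP3 to a product that no longer opens the receptor. In smooth muscle, this release feeds contraction, while brief local releases through ryanodine receptors open potassium channels of the membrane and oppose it.

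Total RNA of whole descending aortas came from male C57BL/6 mice of 20 months. Old nitrate treated mice (n = 5) received 1 g/L NaNO3 in the drinking water for 8 weeks. Old controls (n = 6) carry the agent label control. The paper names sodium chloride at an equal concentration for this group, whereas the labels do not and describe these arrays as analysed before, so whether the groups were housed together is not given. Each mouse was hybridized to a single-color Agilent array, and values are log2 of the spot signal after quantile normalization over the 11 arrays. The whole wall was used, so fewer cells of a type and less RNA per cell cannot be told apart.

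The arrays lay on 3 slides with both groups on each, but every control occupied column 3 of its slide and nitrate arrays occupied columns 1, 2 and 4, so column and treatment cannot be told apart. The 75th percentile of the spot signal lay between 189 and 254, and no spot was saturated. The 8 smooth muscle markers were all detected, and all had a higher mean in nitrate treated mice, with a median difference of 0.18 on the log2 scale. Lmod1 was called higher (0.31), Smtn differed by 0.26 without overlap between the groups, and Acta2 differed by 0.03. Their summed signal was 546918 in control 1, between 662540 and 718736 in the other controls and between 690319 and 724444 in nitrate treated mice. Without control 1, left out on sight of this sum, the median difference of these markers was 0.09, Acta2 differed by -0.01, Smtn by 0.15 and Lmod1 by 0.23, and 0 of the 8 were called. All 8 adipocyte markers had a lower mean in nitrate treated mice. The summed signal of 8 adipocyte markers lay between 311158 and 432052 in controls and between 240741 and 311836 in nitrate treated mice, with 4 of 5 nitrate treated mice below every control. By the thresholds given further on 4 of these markers fell, although 0 had an adjusted P value under 0.05, with Adipoq lower by 0.49 on the log2 scale. Heart muscle markers stood apart in control 1 (a sum of 47208) and nitrate treated mouse 4 (74151), against 2982 to 12522 in the other mice. What these differences contribute to the values below was not tested.

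A member is measured where its probe sits, so the probes of the receptors and of Itpka, the kinase that changed, are shown first (8 of the 11), by the last 30 of their 60 bases, 5′ to 3′ on the transcript strand, with the polyadenylation signal AATAAA in capitals where it occurs.
Itpr1: agtttgtaaatgcatacctaaaaatattta
Itpr2: gtgtttgcacgcttgagaagattcaagctt
Itpr2, second probe: gggttaataagttttctggtgatgtcttcc
Itpr3: ttaattgccttaAATAAAttaatagactcc
Ryr1: ctagccaattacatgtttttcctgatgtat
Ryr2: gttgatccacatgggagaactttcgtgata
Ryr3: aaaagaagtgcccactgcAATAAAgtaaaa
Itpka: tagacttcctggtctaactcctgcactaca

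The Itpr3 and Ryr3 probes hold AATAAA, which 10.1% of all probes on the array hold. The pair of Itpr2 probes sample distant parts of the gene. In mm9 coordinates, which the files use, the first lies on the minus strand at chr6:146060005-146060064, and the second covers chr6:146369944-146371234, a span of 1291 bases for a probe of 60 bases, so that its match is interrupted. They lie 309879 bases apart. The match of the Ryr1 probe is interrupted as well, with a span of 699 bases (chr7:29788789-29789487). Every other member probe matches 60 uninterrupted bases. Whether these lie in a coding exon or an untranslated region was not analysed here.

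Detection required a spot that Feature Extraction found and placed well above background, in no fewer than 5 mice of a group. This left 8 of the 11 probes and 7 of the 9 genes. Ryr1, the channel of skeletal muscle, was well above background on 0 of 11 arrays, as was the second Itpr2 probe, and Ryr3, a channel of brain and smooth muscle, on 1 of 11, from the nitrate group. No difference between the groups is given for these 3 probes. Their log2 signals lay between 1.95 and 3.76 for Ryr1, 2.01 and 4.34 for Ryr3 and 2.1 and 3.42 for the second Itpr2 probe, with overlap between the groups.

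By the thresholds of the study's methods, an unadjusted P value under 0.05 in the moderated test of limma and a fold change above 1.2, 3 of the 8 detected probes changed. Ryr2 rose, Itpr2 and Itpka fell, and the probes of Itpr1, Itpr3, Itpkb and Itpkc did not pass. The paper lists Ryr2, Itpr2 and Itpka in the same directions, but also Itpr3 as higher with a fold change of 1.2. It describes more nitrate replicates than there are arrays here and made its detection calls in other software. Over all 23633 detected probes the same rule called 9.00%, with 4.16% higher and 4.85% lower (982 and 1146 probes, or 436 and 782 after normexp background correction). After Benjamini-Hochberg adjustment over all detected probes 0 of the 8 passed 0.05 in limma's test, as against 0.0127% of all detected probes. The smallest adjusted P value was 0.109. An unadjusted P value under 0.05 was reached by 4, and by 14.4% of all detected probes. The median difference of the 8 probes was 0.02 on the log2 scale, against 0.01 over all detected probes, and the median size of the difference, regardless of sign, was 0.18 against 0.11.

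**Figure D1:**
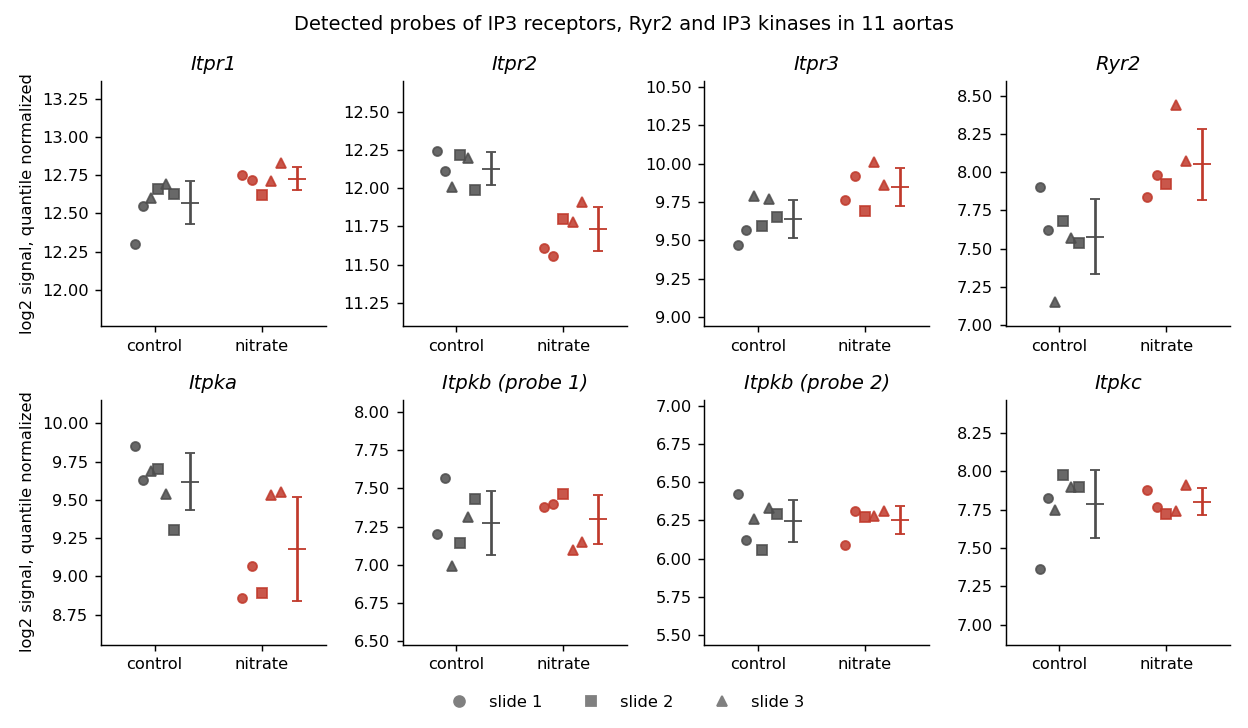
Log2 signal (vertical axis, each panel spanning the same 1.6 units) of the 8 detected probes in 6 control mice (grey) and 5 nitrate treated mice (red). Each symbol is a mouse, its shape gives the slide, and the bar beside each group is the mean ± SD. Itpr2 is the only panel in which the groups do not overlap, and in Itpka the nitrate treated mice of slide 3 lie among the controls.

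Among the receptors that IP3 opens, Itpr2 fell, and the other 2 had higher means in nitrate treated mice but did not pass both thresholds. Itpr2, the subtype with the highest affinity for IP3, had log2 signals of 12.24, 12.11, 12.01, 12.22, 12.2 and 11.99 in controls 1 to 6. In nitrate treated mice 1 to 5 it had 11.61, 11.56, 11.8, 11.78 and 11.91. Every nitrate treated mouse lay below every control. From 12.13 ± 0.11 (SD, n = 6) in controls the mean dropped to 11.73 ± 0.14 (SD, n = 5) under nitrate, a fall of 1.32-fold. On the log2 scale the difference was -0.40 with a standard error of 0.08 and a 95% interval from -0.57 to -0.22 (limma, adjusted P = 0.109; two-sided exact permutation test over the 462 divisions of the mice, P = 0.00216, the smallest it can give). Among all detected probes 2.75% had groups without overlap, 1.14% with nitrate treated mice lower. The fall was present on each slide, with differences of -0.59, -0.3 and -0.26 on slides 1 to 3, and lay between -0.44 and -0.35 with each mouse left out in turn. The second Itpr2 probe gives no measure of it, since it was not well above background in any mouse.

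Itpr3, a lower affinity subtype, was higher in nitrate treated mice by 0.21 on the log2 scale with a standard error of 0.08, a 1.15-fold difference that lies below the threshold of the fold change. Controls 1 to 6 had log2 signals of 9.47, 9.57, 9.79, 9.59, 9.77 and 9.65, and nitrate treated mice 1 to 5 had 9.76, 9.92, 9.69, 10.01 and 9.86. The groups overlapped, with 3 of 5 nitrate treated mice above every control (exact permutation test, two-sided, P = 0.0281; limma, unadjusted P = 0.0253 and adjusted P = 0.297). Of the members this gene alone is printed 10 times on each array, and the SD between the 10 spots of an array lay between 0.03 and 0.08 log2 units, with a median of 0.05. This covers the error within an array only, since the spots share the RNA, the labeling and the hybridization. The SD between mice was 0.13 in nitrate treated mice and 0.12 in controls. The unadjusted P value of limma rose above 0.05 without control 2 (0.0502), without nitrate treated mouse 2 (0.0595) and without mouse 4 (0.0701).

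Itpr1, the subtype best known in vascular smooth muscle, lay in controls 1 to 6 at 12.3, 12.55, 12.6, 12.66, 12.69 and 12.63 and in nitrate treated mice 1 to 5 at 12.75, 12.72, 12.62, 12.71 and 12.83. In nitrate treated mice 4 of 5 values exceeded every control, but the difference was small, at 0.15 on the log2 scale with a 95% interval from -0.02 to 0.32. The tests differed for it, since the exact permutation test gave P = 0.0325 and limma an unadjusted P of 0.0741. Control 1 was the lowest mouse, and without it the difference was 0.1. Within slides it was 0.31, -0.02 and 0.12.

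**Figure D2:**
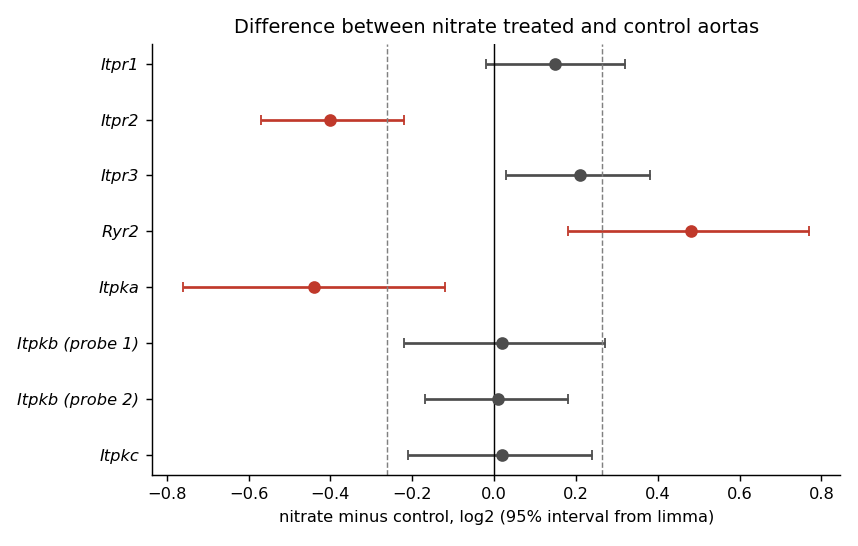
Difference between nitrate treated and control mice on the log2 scale (horizontal axis) for the 8 detected probes, with 95% intervals from limma. Dashed lines mark a fold change of 1.2, and red marks the 3 probes called. The intervals of Itpr2, Ryr2 and Itpka lie wholly on one side of 0 and their means lie beyond a dashed line, while the Itpr3 interval also excludes 0 but its mean lies inside the lines.

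Whether relatives changed unequally was tested on the ratio of their probes within each array, which removes what an array has in common. The level of such a ratio depends on the probes and has no meaning of its own, only its difference between groups does. Detected members gave 6 pairs, 3 of IP3 receptors and 3 of IP3 kinases. The log2 ratio of Itpr1 to Itpr2 was 0.44 ± 0.21 (SD, n = 6) in controls and 0.99 ± 0.15 (SD, n = 5) in nitrate treated mice, a rise of 0.55. The groups did not overlap (exact permutation test, two-sided, P = 0.00216, adjusted over the 6 pairs P = 0.00649). The log2 ratio of Itpr2 to Itpr3 fell by 0.60, from 2.49 ± 0.20 (SD, n = 6) to 1.89 ± 0.20 (SD, n = 5), again without overlap (exact permutation test, P = 0.00216, adjusted P = 0.00649). For Itpr1 to Itpr3 the difference of -0.05 was smaller than either SD (exact permutation test, P = 0.442). Hence Itpr2 changed relative to each of the other IP3 receptors, while a shift between those was not detectable. On slides 1 to 3 the ratio of Itpr1 to Itpr2 differed by 0.9, 0.28 and 0.38 and that of Itpr2 to Itpr3 by -0.91, -0.37 and -0.42. Both pairs with Itpr2 share its values and are not independent of each other. Nor are they independent of the fall of Itpr2, which separated the groups by itself.

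**Figure D3:**
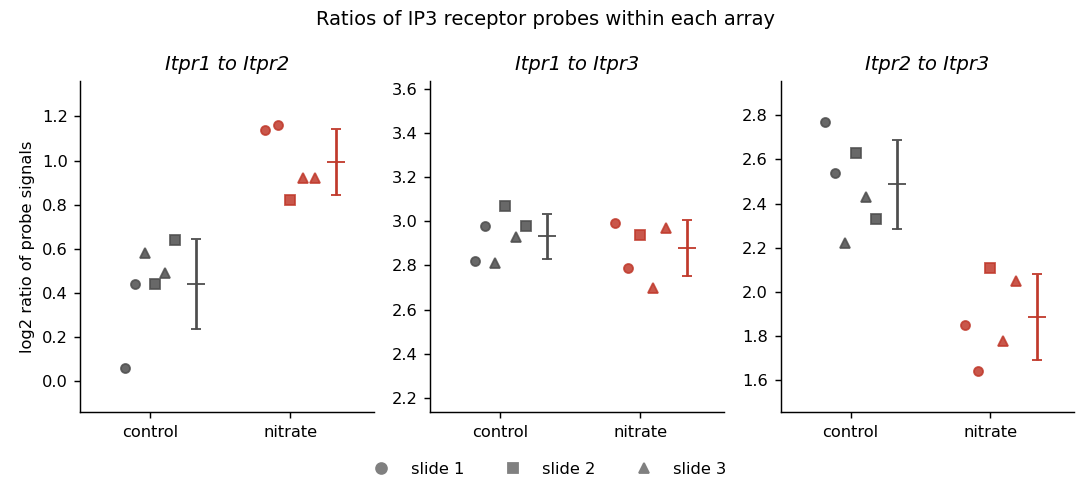
Log2 ratio of the probe signals of each pair of IP3 receptors (vertical axis, each panel spanning 1.5 units) in every mouse, with symbols by slide and the mean ± SD beside each group. The ratio of Itpr1 to Itpr2 reaches 0.64 in controls and starts at 0.82 in nitrate treated mice, and that of Itpr2 to Itpr3 starts at 2.22 in controls and ends at 2.11 in nitrate treated mice. The groups overlap for Itpr1 to Itpr3.

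Ryr2, the release channel of the heart that is also found in arteries, was the only detected ryanodine receptor and rose in nitrate treated mice. Controls 1 to 6 had log2 signals of 7.9, 7.62, 7.15, 7.68, 7.57 and 7.54, and nitrate treated mice 1 to 5 had 7.84, 7.98, 7.92, 8.44 and 8.07. All nitrate treated mice but mouse 1 lay above every control. The mean was 8.05 ± 0.23 (SD, n = 5) against 7.58 ± 0.25 (SD, n = 6), a difference of 0.48 with a standard error of 0.14 and a rise of 1.39-fold (limma, adjusted P = 0.194; exact permutation test, two-sided, P = 0.00649). Its size was uneven between slides. It was 0.16 on slide 1, 0.31 on slide 2 and 0.9 on slide 3, where control 3 had the lowest and nitrate treated mouse 4 the highest value of all. With the slide as a block the difference was 0.47, and with single mice left out it ranged from 0.38 (without nitrate treated mouse 4) to 0.54 (without control 1).

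Ryr2 is an abundant heart muscle transcript, and its highest value in each group fell in the mouse with the highest heart muscle markers, control 1 and nitrate treated mouse 4. In these mice Myh6, the heavy chain of atrial and adult mouse ventricular myosin, had log2 signals of 14.05 and 14.64, against 7.14 to 10.63 in the other controls and 8.59 to 12.32 in the other nitrate treated mice. Of the 10 heart muscle markers 9 were detected and 0 were called, while 8 had a positive difference. Without both mice, which were picked on sight of these markers, Ryr2 was higher in nitrate treated mice by 0.44 (limma, unadjusted P = 0.00262). In the mice that remain, the sum of the heart muscle markers was 5901, 6264, 3948 and 12522 in nitrate treated mice 1, 2, 3 and 5 and lay between 2982 and 6251 in controls, and its part in the difference of Ryr2 was not tested. Of 12 skeletal muscle markers 6 were detected, Myh1, Myh2, Myh4, Actn3, Mylpf and Cacng1 were not, and neither was Ryr1. Among those detected Atp2a1, a calcium pump of the reticulum, was called higher by 0.29 (limma, unadjusted P = 0.00891), and Acta1 had a difference of 0.33 that did not pass. The sum of this list lay between 6846 and 11875 in controls and between 9167 and 13588 in nitrate treated mice, with 3 of 5 above every control, and its part in the rise of Ryr2 was not tested.

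Of the IP3 kinases Itpka was called. It is best known in neurons, where it also binds actin, and fell by 1.35-fold, from 9.62 ± 0.18 (SD, n = 6) in controls to 9.18 ± 0.34 (SD, n = 5) in nitrate treated mice. The difference of -0.44 had a standard error of 0.15 (limma, adjusted P = 0.249; exact permutation test, two-sided, P = 0.0303). Controls 1 to 6 lay at 9.85, 9.63, 9.69, 9.7, 9.54 and 9.3. Nitrate treated mice fell into unlike values, with 8.86, 9.07 and 8.89 in mice 1 to 3 and 9.53 and 9.55 in mice 4 and 5. Mice 4 and 5 were those of slide 3, where the difference was -0.07, against -0.77 on slide 1 and -0.61 on slide 2. On slide 3 the nitrate arrays lay in columns 1 and 2 and on the other slides in column 4. With the slide as a block, the difference over all arrays was -0.47.

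Itpkb, the kinase known for its part in lymphocyte development, was measured by a pair of detected probes, and Itpkc, a further kinase of broad distribution, by a single probe. Neither gene passed the test. The Itpkb probe with the higher signal had 7.28 ± 0.21 (SD, n = 6) in controls and 7.3 ± 0.16 (SD, n = 5) in nitrate treated mice, a difference of 0.02 with a 95% interval from -0.22 to 0.27. The other had a difference of 0.01, from -0.17 to 0.18. For Itpkc the difference was 0.02, from -0.21 to 0.24, so a change of 1.2-fold, 0.26 on the log2 scale, lies outside the intervals of Itpkc and the dimmer Itpkb probe. The ratio of Itpka to Itpkc fell by 0.45 and that of Itpka to Itpkb by 0.46, neither of which passed (exact permutation test, two-sided, P = 0.0541 and P = 0.102, adjusted P = 0.108 and P = 0.153). With the slide as a block both had a P value under 0.05 in limma, with differences of -0.5 for Itpka to Itpkc (unadjusted P = 0.0222) and -0.51 for Itpka to Itpkb (unadjusted P = 0.0237).

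**Figure D4:**
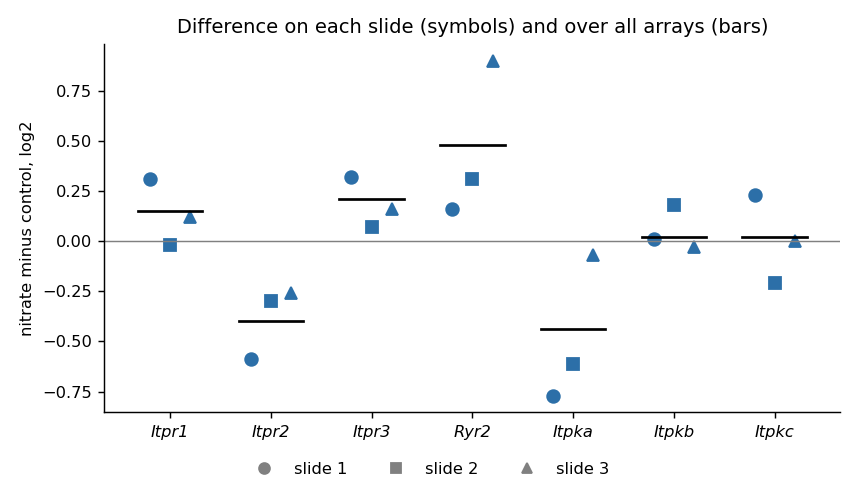
Difference between nitrate treated and control mice on each slide (symbols) and from limma over all arrays (bars), on the log2 scale, for the brightest detected probe of the 7 detected members. Slides 1 and 3 hold 2 arrays of each group, and slide 2 holds 1 nitrate and 2 control arrays. Itpr2 lies below 0 and Ryr2 and Itpr3 above 0 on every slide, while Itpka lies near 0 on slide 3.

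Members were also compared mouse by mouse, after the mean of its group had been taken from each value, so that the treatment itself does not enter. Of the 21 pairs of detected members, Itpr1 and Itpkc went together most closely, with a Pearson correlation of 0.94 and a Spearman correlation of 0.86 over 11 mice (permutation tests within groups, adjusted over the 21 pairs P = 0.0273 and P = 0.0361). Both were lowest in control 1, at 12.3 and 7.36. Without control 1 and nitrate treated mouse 3, the mice farthest from the median of Itpr1, the Pearson correlation was 0.77. The other 20 pairs had adjusted P values of 0.262 or more for Pearson and 0.204 or more for Spearman. In the same way the genes most like each called member were listed, without a test. For Itpka these were Atp5a1 (a Pearson correlation of 0.96 over 11 mice) and Atp5b (0.96), both subunits of the mitochondrial ATP synthase, and Nubpl (0.96), an assembly factor of respiratory complex I. For Itpr2 they included Rmnd5a (0.92) and S100b (0.89), a calcium-binding protein. For Ryr2 they were C8g (0.91), Slc25a4 (0.91), the mitochondrial carrier of ADP and ATP, and Pdxk (0.89), a kinase of vitamin B6. None of these 8 genes passed both thresholds between the groups, although C8g had an unadjusted P value under 0.05 (limma, unadjusted P = 0.0208).

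Since mitochondrial genes stood among these, the marker sums of fat and muscle were set beside the called members, in 12 relations. They were chosen after the correlations above had been seen in the same mice, which the adjustment over the 12 does not cover. The permutations also take no account of the slide. The sum of 5 brown adipocyte markers was 145239, 103256 and 146768 in nitrate treated mice 1 to 3 and 217848 and 253026 in mice 4 and 5, while controls ranged from 172069 to 299790, the highest being control 1. Thus the 3 mice with the lowest Itpka had the 3 lowest sums. Within groups Itpka had a Pearson correlation of 0.75 and a Spearman correlation of 0.76 with the log2 of this sum over 11 mice (permutation tests, adjusted P = 0.0898 and P = 0.0982). For Itpr2 the values were 0.79 and 0.86 (permutation tests, adjusted P = 0.0569 and P = 0.0247), and for Ryr2 0.63 and 0.83 (adjusted P = 0.0898 and P = 0.0247). Without nitrate treated mouse 5 and control 1 the Pearson correlations were 0.58, 0.65 and 0.64. The correlations were positive for all 3 members, but Itpka passed 0.05 after adjustment in neither test, and Itpr2 and Ryr2 in Spearman's alone. Ryr2 had a Pearson correlation of 0.80 and a Spearman correlation of 0.63 with the heart muscle sum (permutation tests, adjusted P = 0.0569 and P = 0.153), and this relation rests on control 1 and nitrate treated mouse 4, since the Pearson correlation was 0.33 without them. With the smooth muscle sum the Pearson correlation of Ryr2 was -0.67, and with the heart muscle sum that of Itpka was 0.63 (permutation tests, adjusted P = 0.0898 for each). The former was -0.41 without controls 1 and 3, and the latter 0.36 without control 1 and nitrate treated mouse 4. In the other 6 relations, the Pearson correlation lay between -0.39 and 0.52, with adjusted P values of 0.147 or more. The part of brown adipose tissue in the differences was not tested. Of the 5 brown adipocyte markers 3 had a positive and 2 a negative difference, with a median of 0.23. Cidea, which has the highest mean signal of the 5 and weighs most in the sum, fell by 0.52. Cox7a1 had a difference of -0.26 that did not pass. Ucp1, the uncoupling protein of brown fat, had a difference of 0.23 that did not pass (limma, unadjusted P = 0.563). Elovl3 and Dio2 had differences of 0.23 and 0.31, which did not pass either.

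**Figure D5:**
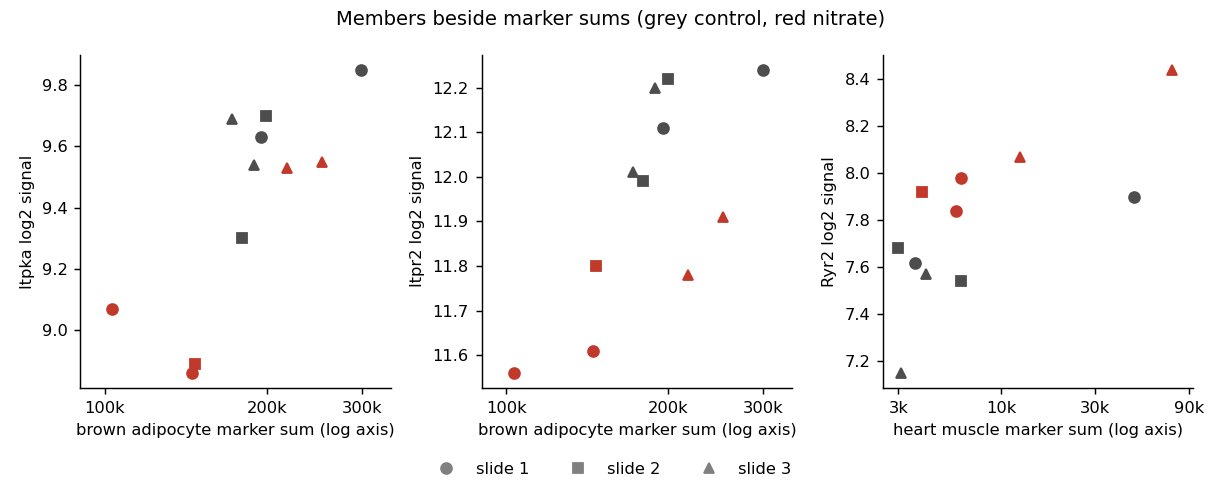
Log2 signal of Itpka and Itpr2 (vertical axes) against the summed signal of 5 brown adipocyte markers, and of Ryr2 against that of 9 detected heart muscle markers (horizontal log axes), in 6 controls (grey) and 5 nitrate treated mice (red), with symbols by slide. Control 1 and nitrate treated mouse 4 stand apart on the heart muscle axis. Nitrate treated mice 1, 2 and 3 have the lowest sums of brown adipocyte markers.

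The genes around these members, from 4 lists chosen for their role, were called about as often as other genes. Of 75 genes listed, 63 were detected and 6 (9.52%) passed the thresholds, 2 higher and 4 lower, against 8.89% of all 18294 detected gene names (4.27% higher and 4.62% lower). After normexp background correction 4 passed, 0 higher and 4 lower. Their median difference was 0.04, against 0.02 over all detected names, and limma's adjusted P value was 0.094 or more for each of them, while 11 had an unadjusted one under 0.05. Proteins that bind or regulate IP3 receptors had 2 of 18 detected genes called. Ahcyl2, a relative of the protein that competes with IP3 for its receptor, ranged from 11.1 to 11.32 in controls (median 11.23) and from 10.6 to 10.97 in nitrate treated mice (median 10.78). It fell by 0.42 without overlap (two-sided exact permutation test, P = 0.00216; limma, adjusted P = 0.094). Ero1l, an oxidase of the endoplasmic reticulum, rose by 0.28 (limma, adjusted P = 0.285), a call that was lost after normexp (0.18) and with an offset of 16 (0.26). Mrvi1, the IP3 receptor partner through which cGMP-dependent kinase acts, had a difference of 0.11 and did not pass (exact permutation test, P = 0.366).

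The partners of ryanodine receptors had 3 of 11 detected genes called. S100a1, a calcium-binding protein that acts on ryanodine receptors, fell by 0.37 (exact permutation test, two-sided, P = 0.00649), with all nitrate treated mice, at 11.54 or less, below all controls, at 11.58 or more. Pde4d, a phosphodiesterase found with Ryr2, fell by 0.38, and Jph4, a junctophilin that holds the reticulum near the cell membrane, rose by 0.42, both with overlap (exact permutation tests, P = 0.0281 and P = 0.039). The call of Jph4 was lost after normexp, where its difference was 0.21. Fkbp1a, the small protein that stabilizes the closed channel, had a difference of 0.13 and did not pass (limma, unadjusted P = 0.161). Casq2 and Trdn, which bind calcium and the channel in the reticulum of heart muscle, were not detected.

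Among enzymes that make or remove inositol phosphates 1 of 16 detected genes was called. Itpk1, a kinase that acts on inositol phosphates downstream of the IP3 kinases, fell by 0.37 (exact permutation test, two-sided, P = 0.0108; limma, adjusted P = 0.245). Inpp5a, the phosphatase that removes IP3 by a different route than the kinases, had a difference of 0.07 and did not pass (limma, unadjusted P = 0.478). Of 18 detected genes of store-operated calcium entry and calcium storage, which refills what the channels release, 0 were called. In this list Calr and Canx, chaperones that bind calcium in the reticulum, had differences of -0.05 and -0.06.

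The set of start regions used here, based on RefSeq (assembly GRCm38.p6), held those of 7 of the 9 members and lacked Itpr1 and Ryr3. These regions run from 250 bases before to 50 after the start. They are shown for the 3 members that changed, only as far as they lie outside the annotated gene, 5′ to 3′ on the strand of the gene, with the GC box GGGCGG (read on both strands) in capitals. Itpr2 is given from chr6:146502259-146502473 (minus strand), Ryr2 from chr13:12106946-12107195 (minus strand) and Itpka from chr2:119742087-119742336 (plus strand).
Itpr2: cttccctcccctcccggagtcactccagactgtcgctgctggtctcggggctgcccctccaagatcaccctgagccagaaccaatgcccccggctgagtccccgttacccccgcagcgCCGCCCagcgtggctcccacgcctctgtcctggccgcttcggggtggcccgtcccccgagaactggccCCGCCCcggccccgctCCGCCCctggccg
Ryr2: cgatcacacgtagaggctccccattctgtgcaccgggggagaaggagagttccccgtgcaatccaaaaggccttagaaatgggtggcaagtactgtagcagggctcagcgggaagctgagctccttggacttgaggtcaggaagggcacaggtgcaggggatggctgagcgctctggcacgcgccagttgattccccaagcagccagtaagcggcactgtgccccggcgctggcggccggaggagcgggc
Itpka: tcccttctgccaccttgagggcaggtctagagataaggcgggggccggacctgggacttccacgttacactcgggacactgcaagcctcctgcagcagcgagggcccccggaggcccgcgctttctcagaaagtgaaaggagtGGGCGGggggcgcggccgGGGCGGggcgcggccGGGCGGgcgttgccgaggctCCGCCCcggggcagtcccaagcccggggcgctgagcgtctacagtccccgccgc

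In the whole windows of 300 bases, GC boxes numbered 5 in Itpr2, 4 in Itpka and 2 in Ryr2, and 35.7% of all 32851 windows hold at least 1. GC content was 73.3% in Itpr2, 73.7% in Itpka and 65.3% in Ryr2, against a median of 52.7% over all windows. Members that were not called had 72.3% in Itpr3, 59.3% in Itpkc, 56.7% in Ryr1 and 39.3% in Itpkb, with 1, 2, 2 and 0 GC boxes. A high GC content was thus not particular to the called members. The E-box CACGTG, held by 7.2% of all windows, occurred once in Itpr3 and in no other of the 7. The motif TATAAA, held by 13.6%, and the CArG box bound by serum response factor, held by 1.6%, occurred in none of these windows.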

How the data were processed

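Total RNA of single mouse aortas was labeled with Cy3 and hybridized to Agilent 8x60K mouse arrays, 1 array for each of 5 old nitrate treated and 6 old control mice. The authors deposited spot intensity values from Feature Extraction 10.7.1.1, background-subtracted and detrended within each array but not normalized between arrays, and a table of log2 values, which per the paper's methods are quantile normalized and centred on the median of all samples. Probe positions are those of mm9 in the files.

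Here processed signals under 1 were set to 1, put on the log2 scale, averaged over the spots of a probe without outlier-flagged spots (at most 357 of 62976 spots on an array, and 2 of the members, both of Itpr3), and quantile normalized over 11 arrays. Probes meeting the detection rule (found, well above background, 5 or more arrays of a group) were tested with lmFit and eBayes (limma 3.58.1, R 4.3.3), without covariates. Intervals use the moderated standard error. Exact permutation tests covered all 462 divisions of the mice, and correlations 100000 permutations within groups. For a partner or marker gene the brightest detected probe stood for the gene. Named were all member probes, called partner genes, bright uncalled ones, markers and the 3 genes most like each called member, of which 1 is not reported here. The members and lists were chosen with earlier results of these data known. In simulated data for this comparison with 23617 probes, limma gave 93% of changes of 0.5 log2 units and 99% of changes of 1 a P value under 0.05, and 5.18% of unchanged probes. The simulated noise was normal and independent between probes, without slide effects or outlying mice, and no limit on the fold change was applied. These shares may therefore differ on the real arrays. Tried as alternatives were the scaling, background correction, the deposited log2 table, an offset of 16, other detection and call rules, keeping outlier spots, a trended prior variance, blocks for slide and replicate number, the mean over probes, and each array left out. The number of arrays limits the precision.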

Additional observations from a re-analysis of the deposited data

Results flagged for a closer look

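In 5 of 46 groups of members, called partner genes and ratios, 1 mouse lay far from the others, where chance gives about 2.3. The value is the gap to the nearest mouse over the range of the group. Control 1 was low in Itpr1 (0.639), in Itpkc (0.629) and in the ratio of Itpr1 to Itpr2 (0.644). Nitrate treated mouse 1 was low in the dimmer Itpkb probe (0.814). Control 4 was high in the second Itpr2 probe (0.75), which was not well above background in any mouse.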

How the results depend on the processing

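The calls of Itpr2, Ryr2 and Itpka kept their direction and stayed under 0.05 in limma (unadjusted P) under the 9 alternatives run for each, with differences from -0.42 to -0.38, 0.36 to 0.49 and -0.5 to -0.42, and with every single mouse left out. Adjusted P values left 0 member probes, 0 partner genes and 3 of all detected probes called. With no limit on the fold change, 11 partner genes and 3394 of all probes were called, against 2128. The number over all probes was 1218 after normexp background correction (436 higher and 782 lower, against 982 and 1146) and 3224 without a detection filter. With each mouse left out it lay between 1596 (without control 1) and 2424, that of member probes stayed at 3, that of partner genes lay between 5 and 9, and that of member probes without overlap between 1 and 2. This last count was 2 without control 1, nitrate treated mouse 1 or mouse 3, and also without control 1 and nitrate treated mouse 4, a pair left out after seeing the data. Itpr3 had a difference of 0.13 without that pair (limma, unadjusted P = 0.114).

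Deviations of same-numbered arrays correlated between -0.14 and 0.18. This shows no clear pairing of the mice by replicate number but cannot exclude one. With the replicate number as a block, which leaves out control 6, 2433 of all probes and 3 member probes were called, and Itpr3 had a difference of 0.21 (limma, unadjusted P = 0.0717). In limma the replicate block gave differences in ratio of -0.56 for Itpka to Itpkb (unadjusted P = 0.0396) and -0.54 for Itpka to Itpkc (unadjusted P = 0.0463). With the slide as a block these (limma) were -0.51 (unadjusted P = 0.0237) and -0.5 (unadjusted P = 0.0222), and normexp gave -0.41 for Itpka to Itpkc (exact permutation test, P = 0.0433). That ratio was -0.43 without control 1 and nitrate treated mouse 4 (exact P = 0.0397). With each mouse left out, the ratio of Itpka to Itpkb lay between -0.6 and -0.35, of Itpka to Itpkc between -0.56 and -0.32, and of Itpkb to Itpkc between -0.06 and 0.08. Averaging detected probes put the last at 0. Within slides, where no test was run, the ratio of Itpr1 to Itpr2 differed by 0.9 on slide 1 and 0.28 on slide 2, that of Itpr2 to Itpr3 by -0.91 and -0.37, that of Itpka to Itpkc by -1 on slide 1 and -0.07 on slide 3, and that of Itpkb to Itpkc by 0.39 on slide 2. Counts were not run within slides.

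Values near 0 changed sign. The dimmer Itpkb probe was 0 with the slide as a block, and Itpkc was -0.01 after normexp and -0.05 without the pair of mice. With each mouse left out, the Itpkb probes lay between -0.03 and 0.08 and between -0.03 and 0.05, and Itpkc between -0.07 and 0.06. No difference is given for the 3 undetected probes. The causes were not tested.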
